A study of Mus musculus with 6 samples.

Results

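The mitochondrial protein import machinery was followed in B cells from the spleens of BALB/c mice, cultured with or without CpG, a synthetic DNA that activates the endosomal receptor TLR9. Genes were taken by name: those whose symbol begins Timm or Tomm, together with Samm50, Pmpca, Pmpcb, Chchd4, Pam16, Dnajc19, Grpel1 and Grpel2. This gave 33 of the 23420 genes listed for each sample, and 31 of them had a value over -0.76, the level of about 10 reads, in at least 3 samples. The same filter kept 11233 genes in all. The 31 genes were over this level in all 6 samples, so none was kept only through the group in which it was higher. RNA was sequenced from 6 samples of B cells purified with beads, 3 stimulated with CpG ODN 1826 at 10 μg/mL for 4 hours and 3 left unstimulated for the same time. The mice were wild type, 3 in number and 7 to 11 weeks old, and both groups had 2 female samples (replicates 1 and 2) and 1 male sample (replicate 3). Which mouse gave which culture is not stated. By sex, replicate 3 came from another animal than replicates 1 and 2. Replicates 1 and 2 of a group may differ by culture, by animal or by both. Samples with the same replicate number did share deviations from their group means, as given with the processing. The main fit and the permutation tests below did not use this pairing. A further fit with the replicate number as a block changed no call among the import genes.

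Nearly all mitochondrial proteins are made in the cytosol and have to cross the mitochondrial membranes. Precursors bind receptors of the TOM complex on the outer membrane and pass through its channel. From there, beta-barrel proteins go to the SAM complex, small cysteine-rich proteins are oxidized and trapped by the MIA pathway, and carriers of the inner membrane are escorted by small TIM chaperones to the TIM22 complex. Precursors with a cleavable presequence cross the TIM23 complex, are pulled in by the PAM motor and are trimmed by the processing peptidase MPP. Resting B cells are small and quiescent, and cells leaving quiescence are known to enlarge their mitochondrial mass before they divide.

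Values were log2 CPM (CPM being read counts scaled to the library total) as made by the authors after quantile normalization. Because this step aligns the samples' distributions, neither per-sample depth nor a change in total RNA per cell can be read from the values. The level of a gene without reads corresponds to a library of 17.8 M counted reads. A change below is therefore a change relative to the other transcripts, and in bulk cultures more RNA per cell and more cells with the RNA cannot be told apart. All 8 B cell markers were expressed, with summed levels of 3950 to 4575 CPM in unstimulated and 2948 to 3366 CPM in stimulated samples. None of 7 T cell and none of 4 NK cell markers reached 10 reads on average. Of the 5 measured myeloid markers 3 reached it, and the summed level of all 5 stayed between 3.25 and 9.31 CPM. Of the 4 markers of plasmacytoid dendritic cells 3 reached 10 reads on average. The 4 markers summed to 560 to 622 CPM in unstimulated and 1765 to 1913 CPM in stimulated samples. In this list 2 genes, Irf8 and Bst2, are also B cell genes. The 3 measured plasma cell markers summed to 149 to 165 CPM in unstimulated and 95.6 to 102 CPM in stimulated samples. The part of these marker levels in the results was not tested. Erythroid markers stood apart in replicate 2 of both groups, at 5007 CPM with and 3950 CPM without CpG, against 399 to 634 CPM in the other 4 samples. The counts below are therefore also given without replicate 2.

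CpG raised the RNA of most import genes relative to other transcripts. In a linear model per gene (limma, fitted over all 11233 genes, with Benjamini-Hochberg false discovery rates, FDR), 29 of the 31 genes were increased at an FDR under 0.05, or 93.5%, where 37.6% of all genes tested were increased. A log2 fold change (log2FC) over 1, which is a fold over 2, was passed by 15 of them, or 48.4%, against 15.8% of all genes. A decrease was called for 1 gene, Tomm34, where 36.7% of all genes were decreased, and Timm17b was called in neither direction. In 29 genes the lowest stimulated value was above the highest unstimulated value, as in 39.1% of all genes. The median log2FC was 0.97, a fold of 1.96, beside a median of 0.0033 over all genes, and the middle of the list ran from 0.41 to 1.22 (quartiles). Without replicate 2 of both groups, 28 genes were increased, 13 of them with a log2FC over 1, and the median was 0.95.

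The same counts are given for other nuclear genes for mitochondrial proteins. Of 76 mitochondrial ribosomal protein genes, 67 (88.2%) were increased and 29 (38.2%) had a log2FC over 1, while 2 were decreased and 7 were not called, with a median of 0.87. For oxidative phosphorylation, 85 genes were taken by symbol. The Nduf symbols used also match Ndufaf genes, which encode assembly factors, so the list is not of subunits only. Of these 85 genes, 60 (70.6%) were increased and 13 (15.3%) had a log2FC over 1. In the same list 9 were decreased and 16 were not called, with a median of 0.44. Of all genes tested, 37.6% were increased and 15.8% had a log2FC over 1, so the share of oxidative phosphorylation genes over 1 was near that of all genes. These are descriptions of the lists, and differences between the lists were not tested.

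**Figure D1:**
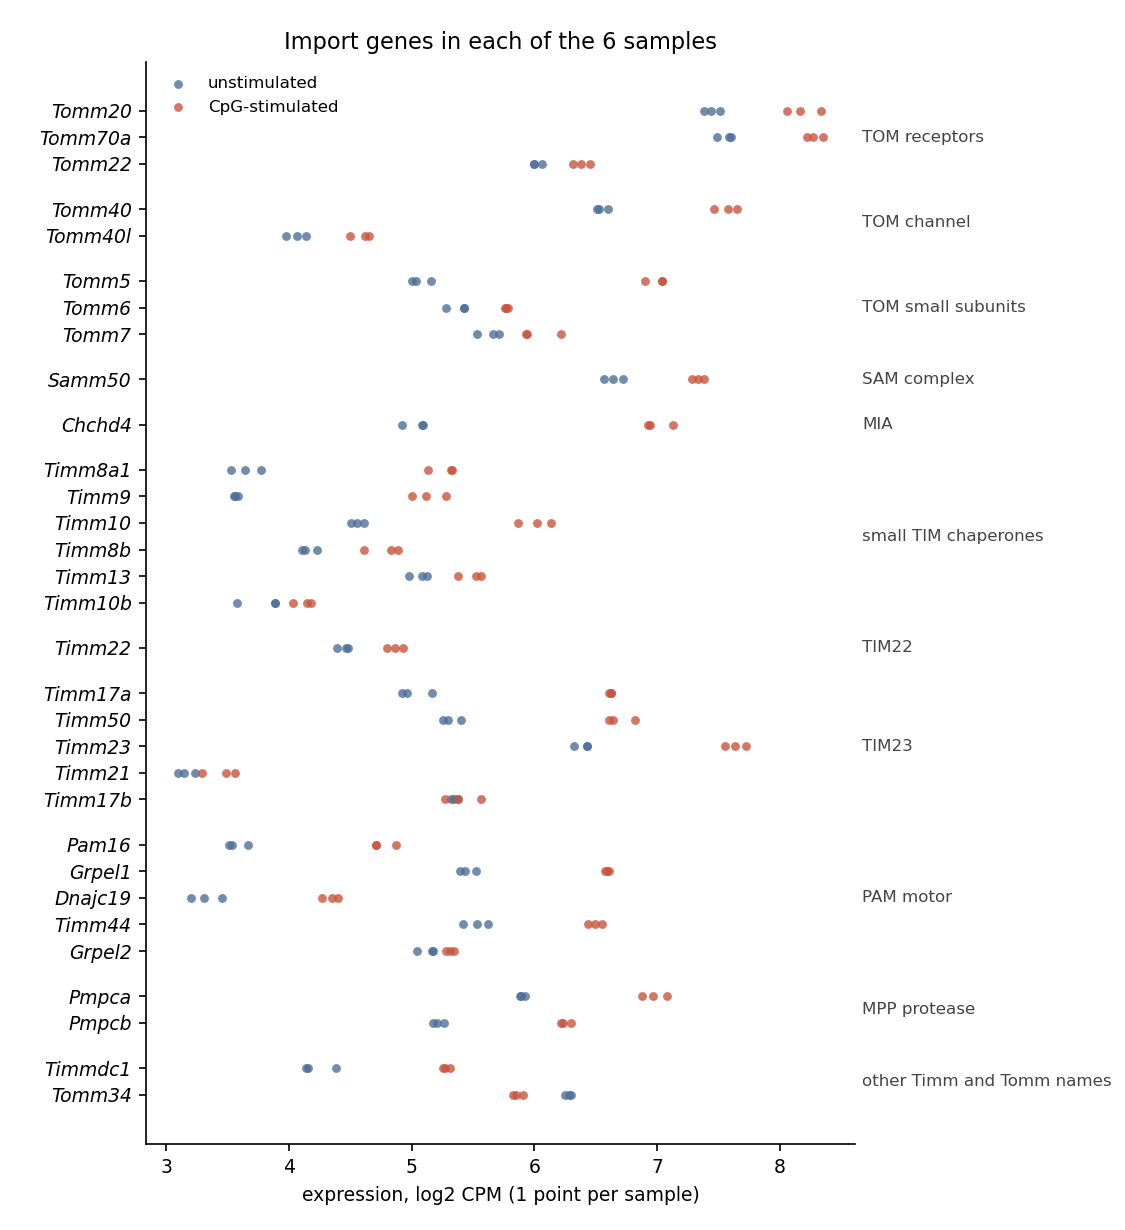
Expression of the 31 import genes in log2 CPM (horizontal axis), grouped by role, with 1 point for each of 3 unstimulated (blue) and 3 CpG-stimulated (red) samples. The red points lie to the right of the blue ones in 29 genes, overlap them in Timm17b, and lie to the left in Tomm34.

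The largest change was in the MIA pathway of the intermembrane space. Chchd4 (minus strand of chromosome 6, 91462172 to 91473546 in GRCm38) encodes the mammalian Mia40, the oxidoreductase that inserts disulfide bonds into small incoming proteins. Its level was 5.10, 5.09 and 4.93 log2 CPM in unstimulated replicates 1 to 3 and 7.13, 6.94 and 6.92 log2 CPM in stimulated replicates. All 3 stimulated samples were thus higher by well over the spread within a group, with a log2FC of 1.96 (standard error 0.08, FDR = 3.61e-08), a fold of 3.90. Without each sample in turn, or without replicate 2 of both groups, the log2FC ran from 1.90 to 2.02. The highest value was the one without replicate 2 of both groups.

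The small TIM chaperones, which are substrates of this pathway, were increased in 6 of 6 genes, with log2FC values from 0.33 to 1.61. Timm9 and Timm10 form the hexamer that carries hydrophobic precursors through the intermembrane space. Timm9 (minus strand of chromosome 12, 71123173 to 71136684) was at 3.59, 3.56 and 3.55 log2 CPM without and 5.01, 5.12 and 5.28 log2 CPM with CpG. Timm10 (plus strand of chromosome 2, 84826997 to 84830213) was at 4.61, 4.55 and 4.51 log2 CPM without and 6.03, 6.14 and 5.87 log2 CPM with CpG. Groups were far apart in both genes, with a log2FC of 1.57 (standard error 0.09, FDR = 2.44e-07) for Timm9 and 1.45 (standard error 0.08, FDR = 2.04e-07) for Timm10. The span of Timm9 overlaps that of Tomm20l on the other strand, and whether counting used the strand is not given in the sources used here. Tomm20l was under the filter in these samples.

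Timm8a1 and Timm8b encode alternative partners of Timm13 in a further small TIM complex, and loss of the human counterpart of Timm8a1 causes deafness-dystonia syndrome. Timm8a1, on the minus strand of chromosome X from 134537256 to 134541865, was at 3.64, 3.77 and 3.53 log2 CPM in unstimulated samples and at 5.33, 5.32 and 5.14 log2 CPM in stimulated samples. Stimulated samples were higher throughout, with a log2FC of 1.61 (standard error 0.10, FDR = 2.62e-07). Of the stretches of 75 bases in its longest transcript, 39.9% also occur in transcripts of Gm9797, so its value is uncertain. Timm8b values were 4.13, 4.23 and 4.11 log2 CPM without and 4.84, 4.89 and 4.61 log2 CPM with CpG, a smaller change (log2FC 0.62, standard error 0.10, FDR = 0.000200) with no overlap of the groups. Timm13, the shared partner, had a log2FC of 0.43 (FDR = 0.000711). The lowest of the group, Timm10b, which docks the chaperones to TIM22, had a log2FC of 0.33 (FDR = 0.0205). Its call was lost without CpG-stimulated replicate 1 (FDR = 0.0588), without CpG-stimulated replicate 3 (FDR = 0.0605) or without unstimulated replicate 1 (FDR = 0.0786). It shares 17.3% of its stretches with other transcripts, among them those of Arfip2 on the other strand, which had a log2FC of 0.95.

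The TOM complex, the common entry gate, was increased in 8 of 8 genes, of which Tomm5 and Tomm40 had a log2FC over 1. Tomm5 is a small subunit that sits beside the channel. This gene, on the minus strand of chromosome 4 from 45105208 to 45108114, was at 5.16, 5.03 and 5.0 log2 CPM in unstimulated samples and at 7.04, 7.04 and 6.90 log2 CPM in stimulated samples. Its log2FC of 1.93 (standard error 0.07, FDR = 2.62e-08) was next to that of Chchd4, and the other small subunits had lower values. Tomm6 had a log2FC of 0.39 (standard error 0.07, FDR = 0.000542) and Tomm7, which also stabilizes the kinase PINK1 on damaged mitochondria, a log2FC of 0.39 (standard error 0.09, FDR = 0.00301). The 95% intervals of Tomm5, from 1.77 to 2.09, and of Tomm7, from 0.19 to 0.60, did not meet. In Tomm6, 74.0% of 75-base stretches are shared with Tomm6os or Gm21981, so its value is uncertain.

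Tomm40 forms the channel itself. Its values were 6.60, 6.53 and 6.52 log2 CPM without and 7.65, 7.47 and 7.58 log2 CPM with CpG (log2FC 1.02, standard error 0.07, FDR = 4.21e-07). The receptors for precursors were also increased, each with a log2FC under 1. Tomm20, which binds presequences, had a log2FC of 0.74 (FDR = 1.12e-05), Tomm70a, which takes carriers from cytosolic chaperones, 0.73 (FDR = 2.53e-06), and Tomm22, the central receptor, 0.37 (FDR = 0.000466). Samm50, the core of the SAM complex that folds beta-barrels into the outer membrane, had a log2FC of 0.69 (standard error 0.06, FDR = 4.62e-06).

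**Figure D2:**
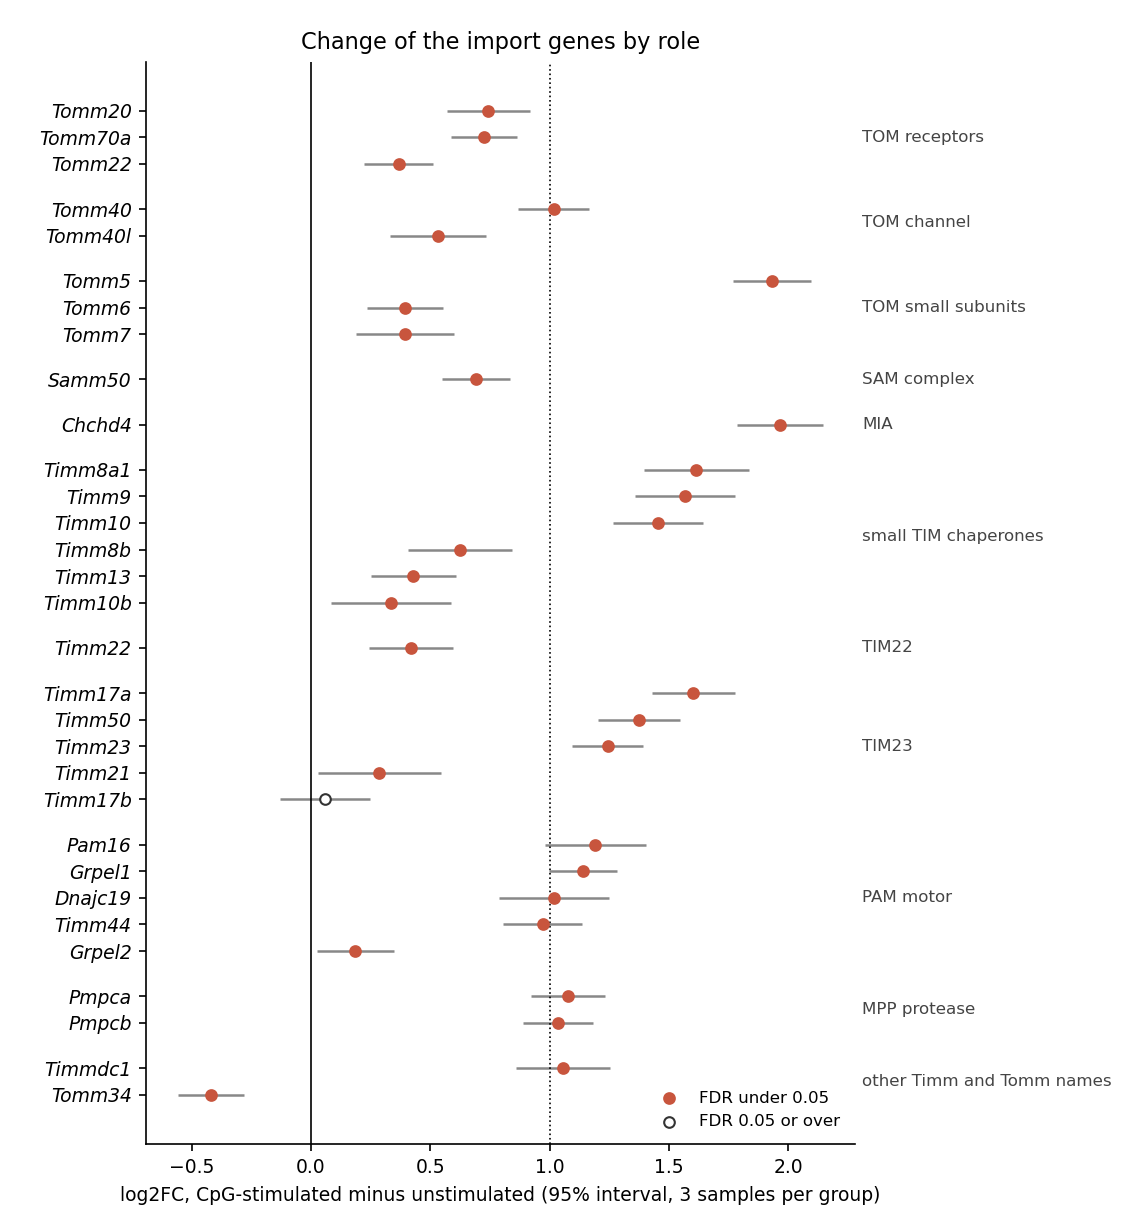
The log2FC of each import gene (CpG-stimulated minus unstimulated, horizontal axis) with its 95% interval from limma and 3 samples per group, grouped by role. The dotted line marks a log2FC of 1. Chchd4 and Tomm5 lie farthest to the right, at 1.96 and 1.93, the interval of Timm17b includes 0, and Tomm34 lies under 0.

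In the inner membrane, the presequence translocase TIM23 was increased in 4 of 5 genes. Timm17a, which forms the translocation path together with Timm23, lies on the minus strand of chromosome 1 from 135295213 to 135313778. It was at 4.92, 5.17 and 4.96 log2 CPM without CpG, and in stimulated samples at 6.62, 6.63 and 6.61 log2 CPM, with almost no spread between replicates. The log2FC was 1.60 (standard error 0.08, FDR = 7.08e-08). Timm50, the receptor that hands precursors from TOM to TIM23, was at 5.40, 5.25 and 5.30 log2 CPM without and 6.82, 6.61 and 6.65 log2 CPM with CpG. Its log2FC was 1.37 (standard error 0.08, FDR = 1.68e-07).

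Timm23 itself (chromosome 14, minus strand, 32180162 to 32201898) was at 6.43, 6.43 and 6.32 log2 CPM in unstimulated samples and 7.63, 7.72 and 7.55 log2 CPM in stimulated samples, with a log2FC of 1.24 (standard error 0.07, FDR = 1.25e-07). Its groups were well apart, but 88.4% of the 75-base stretches of its longest transcript recur in other annotated transcripts, among them those of Gm10273, Gm10171 and Gm10233. How the authors' counting treated such reads is not given in the sources used here, so the level of Timm23 is uncertain. Timm21 links TIM23 to the respiratory chain. Its log2FC of 0.29 (standard error 0.12, FDR = 0.0454) passed with all samples. It no longer passed when either CpG-stimulated replicate 2 or 3 (FDR = 0.0923 and 0.157) or any unstimulated replicate (1, 2 or 3; FDR = 0.0565, 0.122 and 0.101) was left out. The call was also lost without replicate 2 of both groups (FDR = 0.179). Timm22, the channel of the carrier translocase, had a log2FC of 0.42 (standard error 0.08, FDR = 0.000767).

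Timm17b, the paralog of Timm17a on chromosome X (plus strand, 7899357 to 7908351), was not called. Its values were 5.38, 5.35 and 5.32 log2 CPM without and 5.28, 5.57 and 5.38 log2 CPM with CpG, and the groups overlapped. The log2FC of 0.058 had a 95% interval from -0.13 to 0.25 (FDR = 0.552), an interval that does not reach the log2FC of Timm17a, 1.60.

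The PAM motor, which pulls precursors into the matrix, was increased in 5 of 5 genes. Pam16 and Dnajc19 encode the J-like and J proteins that regulate the mitochondrial Hsp70, and had log2FC values of 1.19 (FDR = 1.49e-06) and 1.02 (FDR = 9.01e-06). Pam16 shares 23.4% of its stretches with Glis2 on the other strand. Timm44, which tethers Hsp70 to the translocase, had a log2FC of 0.97 (FDR = 1.13e-06). The nucleotide exchange factor Grpel1 (chromosome 5, plus strand, 36464998 to 36474080) was at 5.40, 5.43 and 5.52 log2 CPM without and 6.58, 6.61 and 6.60 log2 CPM with CpG (log2FC 1.14, standard error 0.06, FDR = 1.60e-07). Its paralog Grpel2 was at 5.16, 5.18 and 5.05 log2 CPM without and 5.31, 5.28 and 5.35 log2 CPM with CpG, and although the groups did not overlap, the log2FC was 0.19 (standard error 0.07, FDR = 0.0392). That call was lost without CpG-stimulated replicate 1 or 3 (FDR = 0.0722 and 0.122) and without unstimulated replicate 1, 2 or 3 (FDR = 0.0570, 0.0562 and 0.139).

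Both subunits of MPP, the peptidase that removes presequences in the matrix, were increased. Pmpca, the subunit that binds the presequence, was at 5.89, 5.89 and 5.92 log2 CPM without and 7.08, 6.87 and 6.97 log2 CPM with CpG (log2FC 1.08, standard error 0.07, FDR = 3.55e-07). Pmpcb, the catalytic subunit, was at 5.18, 5.21 and 5.26 log2 CPM without and 6.23, 6.21 and 6.30 log2 CPM with CpG (log2FC 1.03, standard error 0.07, FDR = 3.40e-07). Exons of Pmpca overlap Inpp5e on the other strand, which had a log2FC of -0.088 (FDR = 0.447).

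Not every gene with a Timm or Tomm name encodes a translocase subunit, and of both such genes kept here Tomm34 went the other way. Tomm34 (chromosome 2, minus strand, 164053540 to 164071169) encodes a cytosolic co-chaperone that binds Hsp70 and Hsp90. Its values fell from 6.29, 6.30 and 6.25 log2 CPM in unstimulated samples to 5.91, 5.83 and 5.85 log2 CPM in stimulated samples, with a log2FC of -0.42 (standard error 0.06, FDR = 0.000130). The groups did not overlap, and without each sample in turn the log2FC ran from -0.44 to -0.40. Without replicate 2 of both groups it was -0.39. Timmdc1, an assembly factor of respiratory complex I, was increased with a log2FC of 1.05 (standard error 0.09, FDR = 2.27e-06). Among the 29 genes with a role in import, 28 were thus increased and 0 decreased by limma; a negative log2FC was found in none of these 29 with all samples.

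Several of these genes are paralogs of each other or partners in a complex. For each pair, the difference in log2 CPM was taken within every sample and compared between the groups by a two-sided exact permutation test, for which 3 samples against 3 cannot give a p under 0.1. Timm17a minus Timm17b was -0.46, -0.18 and -0.36 in unstimulated and 1.35, 1.06 and 1.23 in stimulated samples, so that the sign of the difference turned in all 3 replicates. The shift was 1.54 (exact permutation p = 0.1, adjusted p = 0.125 over 5 pairs). Timm8a1 minus Timm8b likewise went from -0.49, -0.45 and -0.58 to 0.49, 0.43 and 0.53, a shift of 0.99. These signs are of log2 CPM not corrected for length; per length, Timm17a and Timm8a1 were under Timm17b and Timm8b in both groups. Grpel1 minus Grpel2 went from 0.23, 0.26 and 0.48 to 1.26, 1.32 and 1.25, a shift of 0.96.

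The smallest shift among the paralog pairs was that of the channel gene Tomm40 and Tomm40l. Tomm40l was at 4.14, 3.98 and 4.06 log2 CPM without and 4.62, 4.65 and 4.50 log2 CPM with CpG (log2FC 0.53, standard error 0.09, FDR = 0.000365). The difference between them grew by 0.49, from a mean of 2.49 ± 0.06 to 2.98 ± 0.14 (SD, n = 3). In the longest transcript of Tomm40l 60.7% of 75-base stretches are shared with Nr1i3 on the other strand, and Nr1i3 was under the filter on low values. In all 4 paralog pairs the groups did not overlap, and the exact permutation p was 0.1 (adjusted p = 0.125), so none passed 0.05. In Pmpca minus Pmpcb, partner subunits of the same enzyme, the difference moved by 0.042 (exact permutation p = 0.8), and it turned to -0.020 without CpG-stimulated replicate 1.

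**Figure D3:**
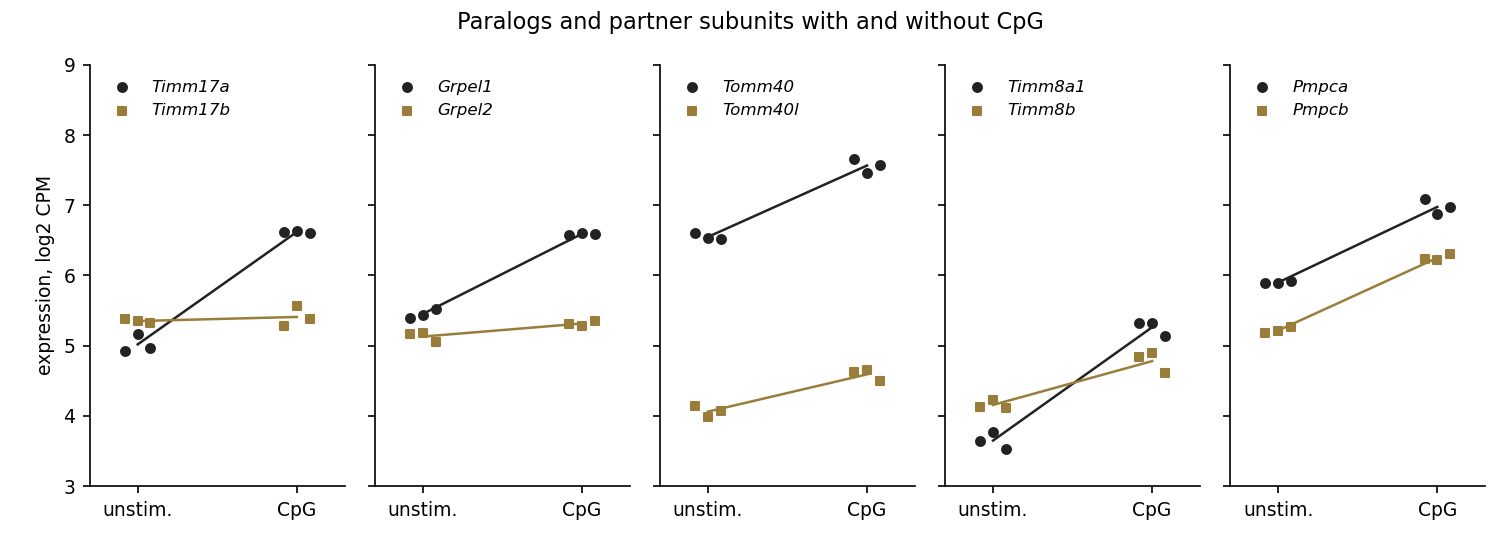
Expression in log2 CPM (vertical axis) of 4 paralog pairs and of both MPP subunits in unstimulated and CpG-stimulated samples; points are samples, 3 per group, and lines join the group means. The lines of Timm17a and Timm17b and of Timm8a1 and Timm8b cross in log2 CPM, which is not corrected for length, and those of Pmpca and Pmpcb run side by side.

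To compare levels between genes, log2 CPM was corrected for the length of the merged exons of each gene in GENCODE M21. On this scale, log2 CPM per kb, the 31 genes ranged over 4.29 in unstimulated samples. Timm23 (5.56 ± 0.06, SD, n = 3) and Tomm7 (5.47 ± 0.09) were at the top and did not differ beyond their spread. That tie depends on the length used. The merged exons of Timm23 sum to 1786 bases and its longest transcript has 1173, whereas both lengths of Tomm7 are 1125 bases. The level of Timm23 is also uncertain because of its shared stretches. Tomm22, Tomm5, Tomm6, Tomm20 and Timm8b followed between 5.29 and 5.10, each within 1 SD of its neighbor. Timm9 (1.47 ± 0.02), Dnajc19 (1.31 ± 0.13) and Timm21 (1.26 ± 0.07) were lowest, and the last pair did not differ beyond its spread. In all, 18 of 30 neighbors in the order were apart by more than the larger of their SD values. These SD values measure the spread between samples and do not cover the choice of length, so the order holds for merged exons only.

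With CpG, Tomm5 moved from position 4 to position 1, at 7.20 ± 0.08 log2 CPM per kb, and Chchd4 from 23 to 16, at 4.62 ± 0.11. Tomm34 went from position 9 to 20 and Timm17b from 13 to 21. Timm17a stayed under Timm17b per length, but the gap in this level narrowed from 2.04 against 4.00 to 3.64 against 4.05. Timm8a1 likewise stayed under Timm8b, at 3.14 against 5.10 without and 4.76 against 5.73 with CpG. The exons of Timm17a sum to 7893 bases and those of Timm17b to 2557 bases, and these levels depend on the annotated lengths. Spearman's rho between the orders of all 31 genes in the groups, over the same lengths, was 0.91, as a description.

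**Figure D4:**
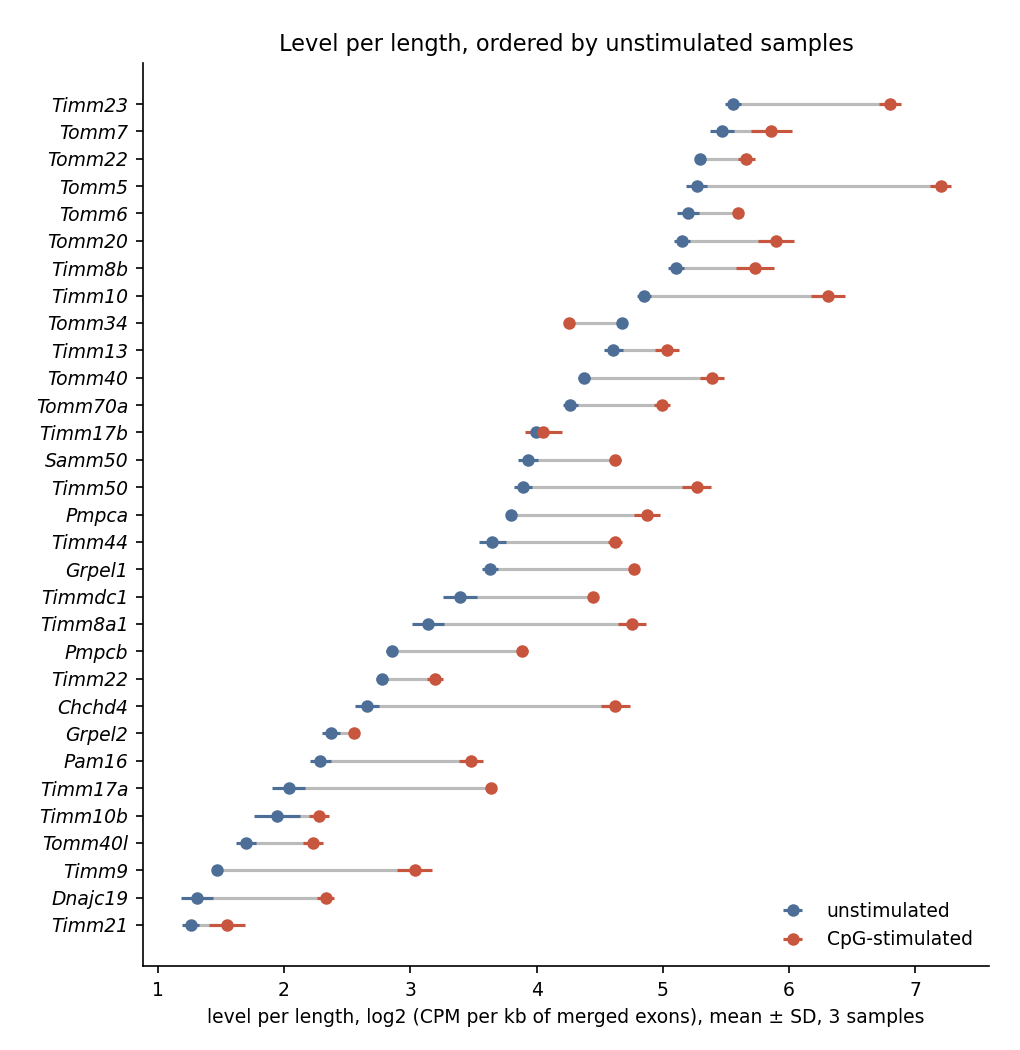
Level per length in log2 CPM per kb of merged exons (horizontal axis), mean ± SD of 3 samples per group, for the 31 genes in the order of the unstimulated samples. Lines join the group means; the longest are those of Chchd4 and Tomm5, and Tomm34 is the gene whose stimulated level is lower.

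Summed over the 31 genes, import transcripts made up 1493, 1492 and 1446 CPM in unstimulated and 2765, 2749 and 2658 CPM in stimulated samples, a ratio of the means of 1.84. The groups did not overlap. These sums and the shares below are not corrected for length, so longer transcripts count for more in them. In CPM the TOM receptors held the largest share, 29.0% of the sum without and 25.3% with CpG. Their sum grew by a ratio of 1.61. The merged exons of the receptor genes Tomm70a and Tomm20 sum to 9777 and 4906 bases. Per length these 2 genes were at positions 12 and 6 in unstimulated samples. The TIM23 genes went from 206 ± 5.97 to 455 ± 14.1 CPM (SD, n = 3), a ratio of 2.20, and from 13.96% to 16.7% of the sum. Much of this comes from Timm23, at 84.0 CPM without and 199 CPM with CpG (from mean log2 CPM). Its level is uncertain because of shared stretches, and so are the TIM23 sum and share. Chchd4 alone went from 2.22% to 4.71%. The small TIM chaperones, the PAM motor and MPP grew by ratios of 2.02, 1.87 and 2.09, whereas Tomm34 and Timmdc1 together stayed at 96.4 ± 0.57 CPM without and 97.01 ± 1.35 CPM with CpG, as the 2 genes moved in opposite directions.

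**Figure D5:**
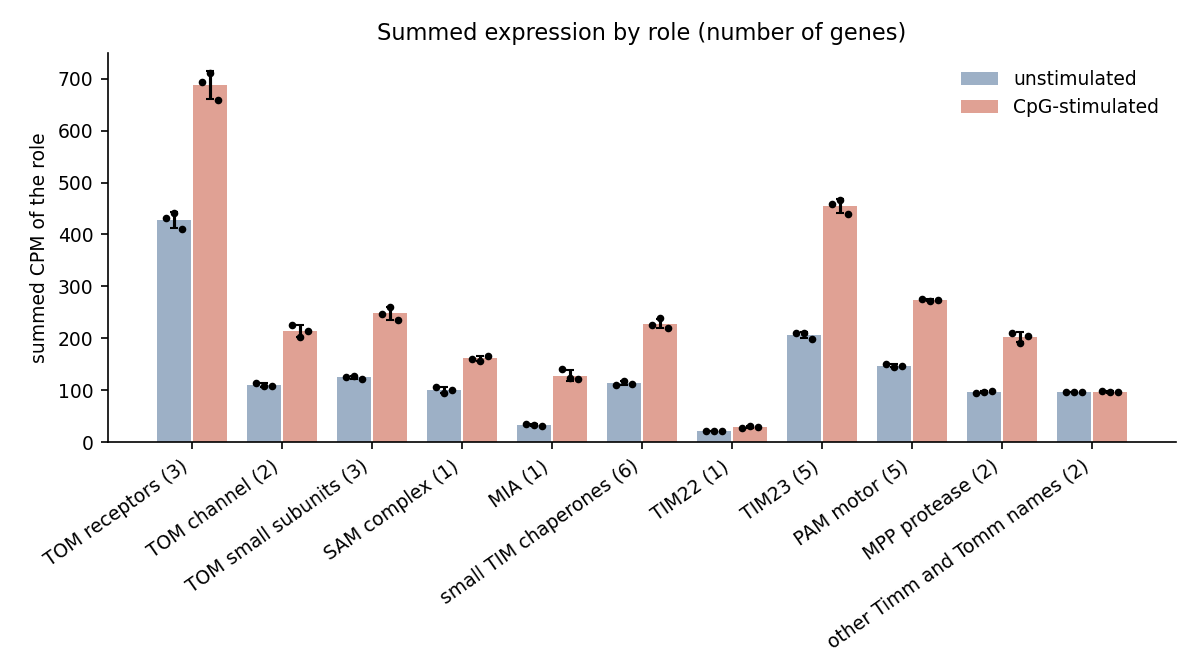
Summed CPM (vertical axis) of the genes of each role, with the number of genes in brackets; bars are means, error bars SD and points the 3 samples of each group. Sums are not corrected for length, so longer transcripts count for more. In CPM the TOM receptors have the highest sums and TIM23 the next highest. The sum of the pair of genes with other functions is at 96.4 and 97.01 CPM. The TIM23 sum includes Timm23, whose level is uncertain because of shared stretches.

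Promoters were searched for short sequences that are known from promoters of growth and mitochondrial genes, to see what the genes share beyond their names. RefSeq promoters of 300 bases (GRCm38.p6) were matched for 27 of the 31 genes and for 8400 of all genes tested. The E-box CACGTG, a site that MYC and MAX can bind, was in 4 promoters (14.8%), those of Tomm20, Timm8a1, Timm9 and Timm10, beside 12.4% of the promoters of tested genes. The ETS sequence CCGGAAGT, on either strand, was in 6 (22.2%), those of Tomm70a, Timm10, Timm10b, Timm23, Pmpcb and Timmdc1, beside 9.90%. GCGCATGC, from sites of NRF1, was in 2 (Timm13 and Grpel1; 7.41% beside 6.55%), AAGATGGCG, from sites of YY1, in 1 (Timm50; 3.70% beside 3.90%) and CCAAT in 9 (33.3% beside 43.3%). Over all 27025 genes with a promoter in the table these shares were 8.09%, 4.31%, 3.05%, 1.64% and 41.1%. The share of E-box promoters was thus close to that of other tested genes, and no test of these shares was run. Neither Chchd4 nor Tomm5, the genes with the largest log2FC, had any of these 5 sequences in this window.

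The E-box stretches are shown because 3 of their genes, Timm8a1, Timm9 and Timm10, are among the 8 with the largest log2FC. The others of these 8, Chchd4, Tomm5, Timm17a, Timm50 and Timm23, had no CACGTG in this window. Capitals mark CACGTG and CCGGAAGT or its complement, and each stretch is written 5′ to 3′ on the strand of the gene.
Timm9, chr12:71136698-71136763, minus strand: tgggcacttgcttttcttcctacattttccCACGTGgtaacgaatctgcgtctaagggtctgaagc
Timm9, chr12:71136656-71136706, minus strand: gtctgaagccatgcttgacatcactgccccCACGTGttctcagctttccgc
Timm8a1, chrX:134541871-134541920, minus strand: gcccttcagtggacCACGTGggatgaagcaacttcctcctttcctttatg
Timm8a1, chrX:134541630-134541657, minus strand: cgtcacccagaCACGTGaaggtcggcaa
Timm10, chr2:84827026-84827055, plus strand: tagacttccttCCGGAAGTgaccCACGTGc
Tomm20, chr8:126946012-126946077, minus strand: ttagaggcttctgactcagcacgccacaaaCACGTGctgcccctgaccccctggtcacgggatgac
In Timm9 the E-box matches begin 58 bases and 1 base before the RefSeq start. In Timm10 both sequences lie after the start, with 4 bases between them.

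Of the ETS matches, 1 each is shown from the inner membrane channel, the matrix peptidase and the outer membrane receptors.
Timm23, chr14:32201902-32201969, minus strand: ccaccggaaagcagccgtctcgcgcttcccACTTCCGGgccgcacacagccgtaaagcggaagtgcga
Pmpcb, chr5:21737114-21737179, plus strand: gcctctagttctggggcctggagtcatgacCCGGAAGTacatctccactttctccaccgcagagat
Tomm70a, chr16:57121604-57121671, plus strand: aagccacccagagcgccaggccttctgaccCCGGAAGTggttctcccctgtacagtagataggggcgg
They begin 48, 16 and 80 bases before the start in Timm23, Pmpcb and Tomm70a. The log2FC values of these 3 genes, 1.24, 1.03 and 0.73, were on both sides of the median of 0.97. A match is a sequence only, and binding was not measured.

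Import genes that the name rule leaves out were taken from a list of 21, and 16 (76.2%) were increased, 7 of them (33.3% of the list) with a log2FC over 1, while 2 were decreased and 3 were not called. The shares over all genes tested were 37.6% increased and 15.8% with a log2FC over 1. The median log2FC was 0.72. Pitrm1, the protease that degrades cleaved presequences, was at 5.55, 5.38 and 5.50 log2 CPM without and 7.75, 7.35 and 7.71 log2 CPM with CpG (log2FC 2.12, standard error 0.10, FDR = 7.06e-08). Dnajc15, a paralog of the PAM protein Dnajc19, had a log2FC of 1.93 (FDR = 1.06e-07), and Mtx2 and Mtx3, of the SAM complex, 1.72 and 1.36. The matrix chaperones that receive imported proteins, Hspd1, Hspe1 and Hspa9, had log2FC values of 1.37, 1.02 and 0.70, and Gfer, which reoxidizes the product of Chchd4, had 0.74.

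Oxa1l, which inserts proteins into the inner membrane from the matrix side, had the lowest log2FC on this list. Its values were 6.36, 6.21 and 6.24 log2 CPM in unstimulated and 5.20, 5.22 and 5.33 log2 CPM in stimulated samples, and it decreased with a log2FC of -1.02 (standard error 0.07, FDR = 7.03e-07). Immp1l, a subunit of the inner membrane peptidase, had a log2FC of -0.29 (FDR = 0.0311). Timm29, a subunit of the TIM22 complex listed under its older symbol 1810026J23Rik, was not called (log2FC 0.11, FDR = 0.216), and neither were Immp2l (0.13, FDR = 0.534) and Mtch1 (0.18, FDR = 0.0597; FDR = 0.0491 with the replicate number as a block).

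Both genes under the filter are the rarer paralogs of import genes. Tomm20l, a paralog of Tomm20, was between -4.60 and -3.45 log2 CPM without and between -2.41 and -1.27 log2 CPM with CpG. Timm8a2, a paralog of Timm8a1, was between -3.86 and -2.64 log2 CPM without and between -4.93 and -0.69 log2 CPM with CpG. The level of 3 reads, taken as the limit of detection, was -2.34, so unstimulated samples of both genes lay under it and no fold change is given.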

How the data were processed

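RNA-seq of 6 samples of bead-purified BALB/c B cells was used, with groups and replicate numbers taken from the sample titles. The authors trimmed reads with Trim Galore 0.6.5, aligned them to mm10 with STAR 2.6.1a and counted them per gene with featureCounts (Subread 2.0.1), per the labels' processing notes and the methods. Counts were then quantile normalized for voom, and what they deposited is log2 CPM, not counts; the most common value, -5.15, is that of a gene without reads. Counting error limits the lowest genes, and per-sample depth is unknown.

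Values were fitted as deposited with limma 3.58.1 in R 4.3.3 (lmFit, eBayes with a trend) over genes with a value over -0.76 in at least 3 samples. False discovery rates followed Benjamini and Hochberg, over all genes tested. Members, gene lists and thresholds were chosen with earlier results of these data known. Each member is named. Values in every sample are given for the 8 largest log2FC, negative log2FC, members not called and paralog pairs. The deposited values carry a shift by replicate number that both groups share. Deviations of same-numbered samples from their group means correlated at 0.43, 0.22 and 0.30 across genes (-0.28 to 0.028 for other pairings), so the numbers pair the samples, and a replicate block was added in a further fit. The p values measure the spread between these samples, which may in part be technical. Gene spans, lengths and shared stretches are from GENCODE M21 (GRCm38), promoters from RefSeq (GRCm38.p6), and shared stretches were searched on both strands. How counting treated strand and reads with several matches is not given in the sources used here. The fit was also run on simulated data, but the outcome is not given here and is not used as support for the results. Alternatives were other filters, scales, centring, no variance trend, the block, treat, and each sample left out. Genes of the mitochondrial DNA were not analysed here.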

Additional observations from a re-analysis of the deposited data

How the results depend on the processing

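The number of increased import genes was 29 as reported, and testing against a log2FC of 0.5 with limma's treat left 19. The median log2FC ran from 0.92 to 1.02 without each sample in turn. The number increased was then 26 to 28, and 13 to 16 had a log2FC over 1. Timm17b, not called in any of its 14 alternatives, had a log2FC from -0.021 (without CpG-stimulated replicate 2) to 0.12 (without CpG-stimulated replicate 1) and turned to -0.022 without replicate 2 of both groups, an alternative chosen after the data were seen. The shift of Pmpca minus Pmpcb ran from -0.020 to 0.075 over the samples left out, below 0 without CpG-stimulated replicate 1. Over 434 single-gene results, direction and call were as reported in 417, the call was lost in 15, and the sign turned in 2, both of Timm17b. Lost calls belong to Grpel2, Timm21 and Timm10b, Timm21 also with no filter (FDR = 0.0639). With the replicate block 29 genes were increased and the median log2FC was 0.97; the block changed no call among the import genes. The range of levels per length was 4.34 with the longest transcript and 4.29 with merged exons. A like range does not show that the order holds, as the 2 lengths differ unevenly between genes. The order and the positions were not compared between the lengths. Genes with few reads and genes that share sequence with pseudogenes are the least certain, and a change in total RNA per cell cannot be seen at all after quantile normalization.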
